A study of Mus musculus with 80 samples.

Results

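The genes described here are 8 mouse genes whose human counterparts are tied to Huntington's disease or Parkinson's disease: Htt, Rasd2, Park7, Pink1, Lrrk2, Vps35, Atp13a2 and Gak. They were chosen by name, and all 8 were found among the 25160 genes listed. Their levels were read in single medium spiny neurons (MSN), the projection neurons of the striatum, sorted from the dorsomedial striatum of adult female mice. Every cell came from animals heterozygous for each of their reporters, Drd1a-TdTomato and Drd2-EGFP, and no group was treated, so both groups share the same genotype and differ in the fluorescence used for the sort. The animals had been injected with India ink and the nuclear dye Hoechst to mark the region. There were 40 Drd1a-TdTomato cells (D1 MSN, of the direct pathway) and 40 Drd2-EGFP cells. Both reporters are BAC transgenes, and Drd2-EGFP also marks cholinergic interneurons. Chat, the gene for the enzyme that makes acetylcholine, exceeded 100 TPM in 2 of the Drd2-EGFP cells, and these were read as cholinergic interneurons and kept apart. This left 38 D2 MSN (of the indirect pathway) and 78 MSN in all. The authors report that not every sequenced cell gave usable data, and the paper does not name the cells that failed. Every labelled cell was therefore kept here, and some of these may be cells that the authors did not count as usable.

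Striatal MSN are the neurons that degenerate earliest in Huntington's disease, which is caused by a lengthened CAG repeat in the gene for huntingtin. In Parkinson's disease the dopaminergic neurons that innervate these MSN are lost. The genes linked to its inherited forms work in mitochondrial quality control, endosomal sorting, lysosomal function and the handling of clathrin-coated vesicles, and MSN are known for high Lrrk2 and Rasd2 levels.

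The values are TPM, a share of each cell's transcripts scaled by transcript length, which is meant to make levels comparable between genes. The authors describe a bias of reads toward the 3' end in these data, which this kind of kit gives particularly for long transcripts. Transcripts of the 8 genes ran from 937 nt (Park7) to 13215 nt (Htt). The effect of this bias on the order of the genes was not tested. Because TPM keep no read count, the depth behind a value is unknown, and an exact 0 is reported as listed at 0. Of 3 genes that every cell uses, Eef1a1, of the translation machinery, was at 0 in 1 cell, and Actb and Gapdh were at 0 in 0 cells. The labels name no animal, so every group counted as 1 sample and no test was made. Differences between D1 and D2 MSN are given as the log2 ratio of the mean TPM plus 1, beside the same ratio within the plates FACS051_5 and FACS086_4, which held 34 and 40 of the MSN. The remaining plate, FACS086_9, held 1 D1 and 3 D2 MSN. Shares of cells carry exact (Clopper-Pearson) 95% intervals, which cover counting error only.

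Between 648 and 8657 genes per MSN were above 1 TPM, with a median of 5722 in D1 MSN and 4927.5 in D2 MSN. Each of the MSN markers Ppp1r1b, Pde10a, Rgs9, Bcl11b and Foxp1 exceeded 1 TPM in 71 or more of the 78 cells. The 4 D1 markers and the 4 D2 markers tested had log2 ratios of at least 4.39 in size toward their own subtype. Of the genes for dopaminergic neurons, Ddc and Slc18a2 averaged 2.03 and 0.96 TPM, and Th and Slc6a3 were not matched. A few cells stood apart. On FACS051_5 the D1 cell of well D04 showed Drd1 at 2.03 TPM beside the astrocyte genes Gja1 at 989 TPM and Slc1a3 at 1334 TPM, and the summed level of the 4 matched astrocyte markers in D1 MSN ran from 0 to 2654 TPM with a median of 0.545. The cells in well B02 of FACS086_4 and well A12 of FACS086_9 had 648 and 1215 genes above 1 TPM, the fewest of all. The ratios of the 8 genes were also taken without each of these cells in turn, and none then passed a log2 ratio of 1 in size. With the 3 MSN of fewer than 2000 genes above 1 TPM left out, 0 of the 8 passed it. In that setting 5 of the 8 were above 1 TPM in 50% or more of the MSN, as with all cells. The shares, zeros and ranges given below include all of these cells.

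Htt encodes huntingtin, a large scaffold protein of vesicle transport. The coding sequence of mouse Htt (GENCODE M21) holds a short stretch of glutamine codons at the place of the human disease repeat, shown here because this repeat is what ties the gene to the disease. The stretch printed, in exon 1 on the plus strand at chr5:34761955-34761981 of GRCm38, includes the codon on each side in lower case. The capitals mark 7 glutamine codons from codon 18 on, 6 of them CAG and 1 CAA.
Htt: tttCAGCAGCAACAGCAGCAGCAGcca

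The mean level over the 78 MSN placed the 8 genes in a wide order. Park7 averaged 311 TPM, Rasd2 168 TPM, Lrrk2 143 TPM, Vps35 67.2 TPM, Pink1 55.6 TPM, Gak 20.0 TPM, Htt 10.2 TPM and Atp13a2 6.66 TPM. For comparison, the median of the means of all listed genes was 2.54 TPM. Park7 was at place 278 of the 25160 genes, Rasd2 at 614 and Lrrk2 at 737, whereas Htt was at 7564 and Atp13a2 at 9107. A level above 1 TPM was reached in 50% or more of the MSN by 5 of the 8 genes (Park7, Rasd2, Vps35, Lrrk2 and Pink1), against 13.7% of all listed genes. Neighbours in this order overlapped cell by cell in each case, and the ranges of all 8 genes over single cells began at 0.

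**Figure D1:**
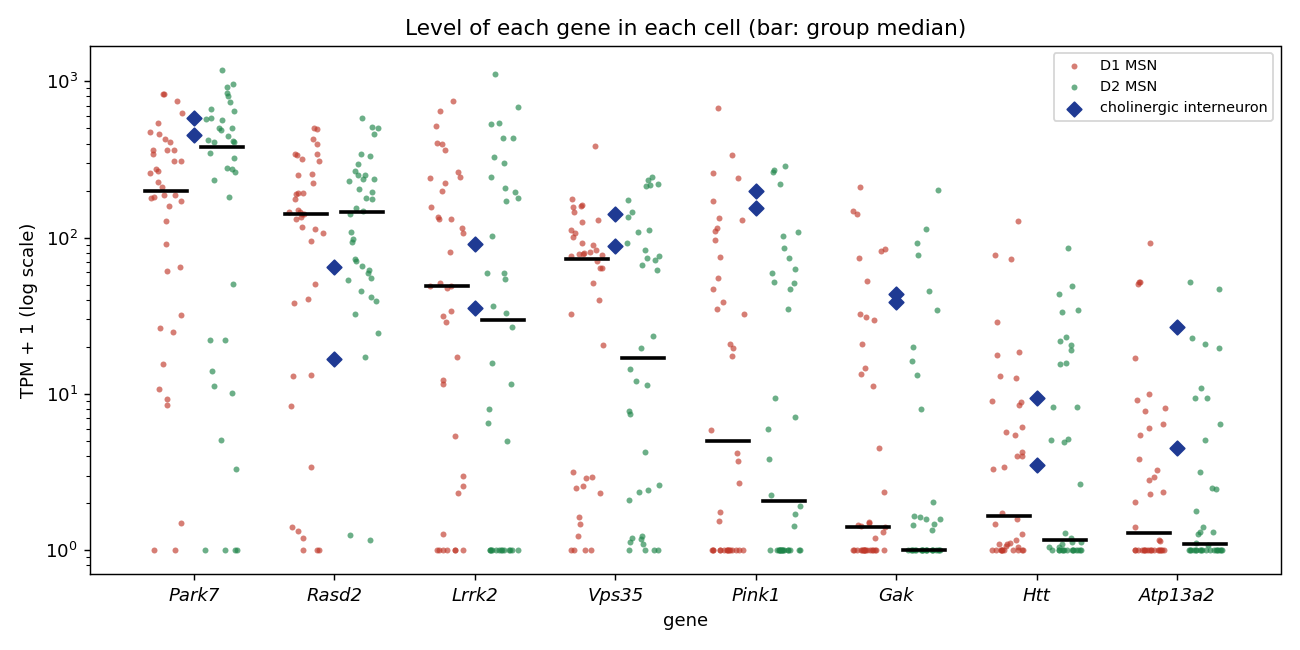
Each point is 1 cell, with the gene on the x axis and TPM plus 1 on a log y axis, D1 MSN in red, D2 MSN in green, and the 2 cholinergic interneurons as blue diamonds. Black bars are group medians. The D1 and D2 points overlap over nearly their whole range in all 8 genes, and cells listed at 0 occur in each gene.

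Between the subtypes, the 8 genes had log2 ratios of D1 over D2 MSN between -0.55 (Park7) and 0.51 (Pink1), with a median of 0.10. A ratio above 1 in size was reached by 0 of the 8. Of the 15671 genes averaging 1 TPM or more, 35.8% reached it, 21.1% toward D1 and 14.8% toward D2, and their median ratio was 0.09. A ratio of that size was thus common among single genes in these cells. Within FACS051_5, 2 of the 8 genes passed 1 in size (42.9% of all genes did), and within FACS086_4 1 did (44.2%). The sign of the ratio differed between these plates for 6 of the 8 genes, and for 44.8% of all genes. Gak and Atp13a2 were the genes with the same sign in both, toward D1. The count of 0 rested on having both plates. Without FACS051_5 Htt passed 1 (1.06), and without FACS086_4 Htt (-1.72) and Park7 (-1.03) passed -1. Scaling each cell by its upper quartile moved Pink1 (-1.03), Vps35 (-2.70) and Atp13a2 (-1.35) past -1. Without the 5 cells that this scaling multiplied by more than 10, the count was again 0.

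**Figure D2:**
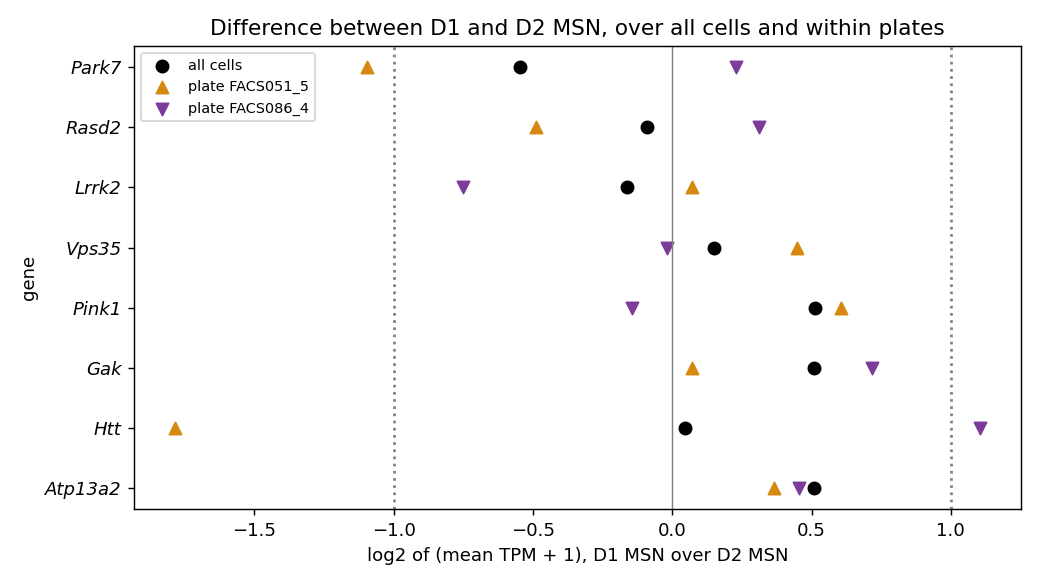
The x axis is the log2 ratio of mean TPM plus 1, D1 over D2 MSN, for each gene on the y axis, over all 78 MSN (black circles), within plate FACS051_5 (orange triangles) and within plate FACS086_4 (purple triangles). Dotted lines mark 1 and -1. All black circles lie between the dotted lines, and Htt spans from -1.79 on FACS051_5 to 1.11 on FACS086_4.

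Htt (ENSMUSG00000029104, chromosome 5, 34761740 to 34912534 of GRCm38) was low and patchy in both subtypes. In D1 MSN it ran from 0 through a median of 0.66 to 127 TPM, and in D2 MSN from 0 through 0.16 to 84.7 TPM. It was listed at 0 in 11 D1 and 14 D2 MSN, and a few high cells carried the mean: the highest cell alone held 30.7% of the summed D1 level and 22.2% of the D2 level. Above 1 TPM were 19 of 40 D1 MSN (47.5%, interval 31.5% to 63.9%) against 17 of 38 D2 MSN (44.7%, interval 28.6% to 61.7%). The means of 10.4 and 10.03 TPM gave a log2 ratio of 0.05. Behind this lay opposite differences on the plates. On FACS051_5, D1 MSN averaged 3.31 and D2 MSN 13.9 TPM, a ratio of -1.79. On FACS086_4 they averaged 16.9 and 7.33 TPM, a ratio of 1.11, and the highest D2 cell there held 60.8% of the D2 sum. The 3 highest cells of each subtype on that plate held 77.4% of the D1 sum and 95.4% of the D2 sum. Opposite signs with both ratios past 1 in size were found for Htt alone of the 8 genes, and for 10.1% of all genes. Htt is transcribed into the longest RNA of the group (13215 nt), and overlaps Msantd1, on the same strand, over 4523 bp. Msantd1 averaged 2.67 TPM and was above 1 TPM in 4 MSN.

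Rasd2 encodes Rhes, a small GTPase enriched in the striatum that binds huntingtin. It was among the most regularly found of the 8 genes. Rasd2 (ENSMUSG00000034472, chromosome 8, 75213944 to 75224113) ran from 0 through a median of 141 to 501 TPM in D1 MSN and from 0.16 through 144 to 580 TPM in D2 MSN. Above 1 TPM were 34 of 40 D1 MSN (85.0%, interval 70.2% to 94.3%) against 36 of 38 D2 MSN (94.7%, interval 82.3% to 99.4%), and no more than 3 cells, all D1, were listed at 0. One of these was the cell in well D04 with the astrocyte genes, and another the cell with 648 genes. The means of 163 and 174 TPM gave a log2 ratio of -0.09, with -0.49 on FACS051_5 and 0.31 on FACS086_4. The difference of mean log2 values of TPM plus 1, taken in its place, was -0.70, further toward D2. In both subtypes the FACS051_5 mean was the higher: 172 against 154 TPM in D1 MSN, and 242 against 124 TPM in D2 MSN. The coefficient of variation over the MSN was 0.88, and 25.2% of the 1104 genes averaging 100 TPM or more varied less.

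Rasd1, the paralog of Rasd2, averaged 2.52 TPM and was above 1 TPM in 5 MSN, each of which also had Rasd2. In the other 65 MSN with Rasd2 above 1 TPM, Rasd1 was at or under that limit. The MSN thus held Rasd2 at a far higher level than its paralog.

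Park7 encodes DJ-1, a small protein that protects cells from oxidative stress and whose loss gives an early recessive form of Parkinson's disease. It had the highest level of the 8 genes. Park7 (ENSMUSG00000028964, chromosome 4, 150897133 to 150914437) ran from 0 through a median of 198 to 833 TPM in D1 MSN and from 0 through 377 to 1182 TPM in D2 MSN. Levels over 1 TPM occurred in 37 of 40 D1 MSN (92.5%, interval 79.6% to 98.4%) against 34 of 38 D2 MSN (89.5%, interval 75.2% to 97.1%). The shares were close while the means, 253 and 371 TPM, gave a log2 ratio of -0.55. That ratio rested on FACS051_5. There D2 MSN averaged 565 TPM, with 15 of 16 cells above 100 TPM, and D1 MSN averaged 264 TPM, with 9 of 18 above 100 TPM, a ratio of -1.10. On FACS086_4 the means were 248 TPM in D1 and 212 TPM in D2 MSN, a ratio of 0.23 in the other direction, and the D2 median was 49.2 TPM against 225 TPM in D1. Numbers of genes above 1 TPM moved alongside: on FACS051_5 the median was 5109 in D1 and 5923 in D2 MSN, and on FACS086_4 it was 5730 and 4617. Their part in the Park7 difference was not tested.

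Pink1 encodes a kinase that gathers on damaged mitochondria and recruits the ubiquitin ligase Parkin, for which Park2 codes. It was found in about as many cells as it was missing from. Pink1 (ENSMUSG00000028756, chromosome 4, 138313409 to 138326307) ran from 0 through a median of 4.03 to 679 TPM in D1 MSN and from 0 through 1.08 to 285 TPM in D2 MSN. Above 1 TPM were 23 of 40 D1 MSN (57.5%, interval 40.9% to 73.0%) against 19 of 38 D2 MSN (50.0%, interval 33.4% to 66.6%), and in those 42 cells the median was 56.4 TPM. The means of 65.3 and 45.4 TPM gave a log2 ratio of 0.51, with 0.61 on FACS051_5 and -0.15 on FACS086_4. The highest D1 cell held 26.0% of the D1 sum. The plates differed more than the subtypes did: MSN of FACS051_5 averaged 84.8 TPM and those of FACS086_4 32.9 TPM, a log2 ratio of 1.34, the widest gap between plates over all MSN among the 8 genes. Above 1 TPM were 23 of 34 MSN on FACS051_5 and 17 of 40 on FACS086_4. Plate and animal cannot be told apart.

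Park2 averaged 18.3 TPM and was above 1 TPM in 45 of the 78 MSN. Pink1 and Park2 were above 1 TPM together in 24 cells, Pink1 without Park2 in 18, Park2 without Pink1 in 21, and neither in 15. Their Spearman correlation over the 78 MSN was 0.03. Pink1 was listed at 0 in 31 of these cells, and values this sparse cannot show whether the levels are related.

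Lrrk2 encodes a large kinase with a GTPase domain that phosphorylates Rab proteins, and its activating variants are a frequent cause of dominant Parkinson's disease. It was high on average and uneven from cell to cell. Lrrk2 (ENSMUSG00000036273, chromosome 15, 91673175 to 91816120) ran from 0 through a median of 48.0 to 745 TPM in D1 MSN and from 0 through 28.9 to 1111 TPM in D2 MSN. The limit of 1 TPM was passed by 32 of 40 D1 MSN (80.0%, interval 64.4% to 90.9%) against 25 of 38 D2 MSN (65.8%, interval 48.6% to 80.4%), and the intervals overlapped. Listed at 0 were 7 D1 and 13 D2 MSN, while 17 and 14 were above 100 TPM. D1 MSN thus held Lrrk2 in more cells, whereas D2 MSN had the higher mean: 135 and 152 TPM, a log2 ratio of -0.16. Where the difference of mean log2 values was taken, which weighs each cell by its log level, the direction was the other one, at 0.59. The ratio was 0.07 on FACS051_5 and -0.75 on FACS086_4, where the highest D2 cell, at 1111 TPM, held 34.9% of the D2 sum. Its coefficient of variation was 1.499, and 87.9% of those 1104 genes varied less.

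Lrrk1, the paralog, averaged 0.28 TPM and was above 1 TPM in 5 MSN. Lrrk2 without Lrrk1 was seen in 53 cells and Lrrk1 without Lrrk2 in 1.

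Vps35 encodes the core subunit of retromer, the complex that returns cargo from endosomes to the trans-Golgi network and the cell surface. It was moderate in level and widely found. Vps35 (ENSMUSG00000031696, chromosome 8, 85260392 to 85299802) ran from 0 through a median of 72.5 to 385 TPM in D1 MSN and from 0 through 16.03 to 243 TPM in D2 MSN. Above 1 TPM were 33 of 40 D1 MSN (82.5%, interval 67.2% to 92.7%) against 29 of 38 D2 MSN (76.3%, interval 59.8% to 88.6%). The means, 70.6 and 63.6 TPM, were closer than the medians and gave a log2 ratio of 0.15, with 0.45 on FACS051_5 and -0.02 on FACS086_4. The D1 median exceeded the D2 median on both plates, 66.6 against 16.03 TPM and 77.7 against 11.02 TPM. Vps35 overlaps Orc6, on the other strand, over 171 bp. The use of strand in counting is not given in the sources used here, so reads from that stretch cannot be assigned to either gene, and Orc6 averaged 19.0 TPM.

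The other retromer subunits were found at unequal levels. Vps29 averaged 256 TPM and was above 1 TPM in 68 MSN, 58 of which also had Vps35. Vps26a and Vps26b, alternative subunits of the same position, averaged 11.2 and 11.6 TPM and were above 1 TPM in 15 and 36 MSN. Vps35 occurred without Vps26a in 48 cells and without Vps26b in 31, and 36 of the 78 MSN had neither Vps26 gene above 1 TPM.

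Atp13a2 encodes a lysosomal P5-type ATPase that exports polyamines, and its loss causes a juvenile form of parkinsonism. It was the lowest of the 8 genes. Atp13a2 (ENSMUSG00000036622, chromosome 4, 140986873 to 141007330) ran from 0 through a median of 0.28 to 91.5 TPM in D1 MSN and from 0 through 0.10 to 51.1 TPM in D2 MSN. A level above 1 TPM was seen in 19 of 40 D1 MSN (47.5%, interval 31.5% to 63.9%) against 13 of 38 D2 MSN (34.2%, interval 19.6% to 51.4%), and above 10 TPM 5 of each. The means of 7.96 and 5.30 TPM gave a log2 ratio of 0.51, with 0.36 on FACS051_5 and 0.45 on FACS086_4. The plates gave nearly the same value, and the values still rested on few cells: on FACS086_4 the highest D1 cell held 52.1% of the D1 sum. Of the other P5-type ATPases, Atp13a3 averaged 8.45 TPM and Atp13a1 5.82 TPM, close to Atp13a2, whereas Atp13a4 and Atp13a5 exceeded 1 TPM in 0 MSN. Atp13a1 had a log2 ratio of 1.86, with 1.69 and 2.23 on the plates, and was above 1 TPM in 12 D1 and 6 D2 MSN. Its highest D1 cell held 51.6% of the D1 sum, and without that cell the ratio was 0.98.

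Gak encodes a cyclin G-associated kinase with an auxilin-like domain that helps to strip clathrin from vesicles. At the limit of 1 TPM it was found in the fewest MSN of the 8 genes, whereas at 10 TPM it was in 23 MSN, more than Htt (19) or Atp13a2 (10). Gak (ENSMUSG00000062234, chromosome 5, 108569411 to 108629755) ran from 0 through a median of 0.42 to 208 TPM in D1 MSN and from 0 through a median of 0 to 200 TPM in D2 MSN. Detection above 1 TPM came to 16 of 40 D1 MSN (40.0%, interval 24.9% to 56.7%) against 11 of 38 D2 MSN (28.9%, interval 15.4% to 45.9%), and in those 27 cells the median was 31.4 TPM. The means of 23.5 and 16.2 TPM gave a log2 ratio of 0.51, with 0.07 on FACS051_5 and 0.72 on FACS086_4. On FACS086_4 the highest D2 cell held 64.2% of the D2 sum. The annotation places the unclassified gene Gm43365 over Gak on the same strand.

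The neuronal auxilin gene Dnajc6, a gene of inherited parkinsonism with the same uncoating function, averaged 12.9 TPM and was above 1 TPM in 25 MSN. Gak and Dnajc6 were above 1 TPM together in 6 cells, Gak alone in 21, Dnajc6 alone in 19, and neither in 32. Their Spearman correlation over the 78 MSN was -0.16. Gak was listed at 0 in 37 of these cells, and such sparse values cannot tell whether the levels of these genes are related. In the same cells Hspa8, the chaperone that both cofactors bring to the coat, was above 1 TPM in all 78 and averaged 1392 TPM.

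**Figure D3:**
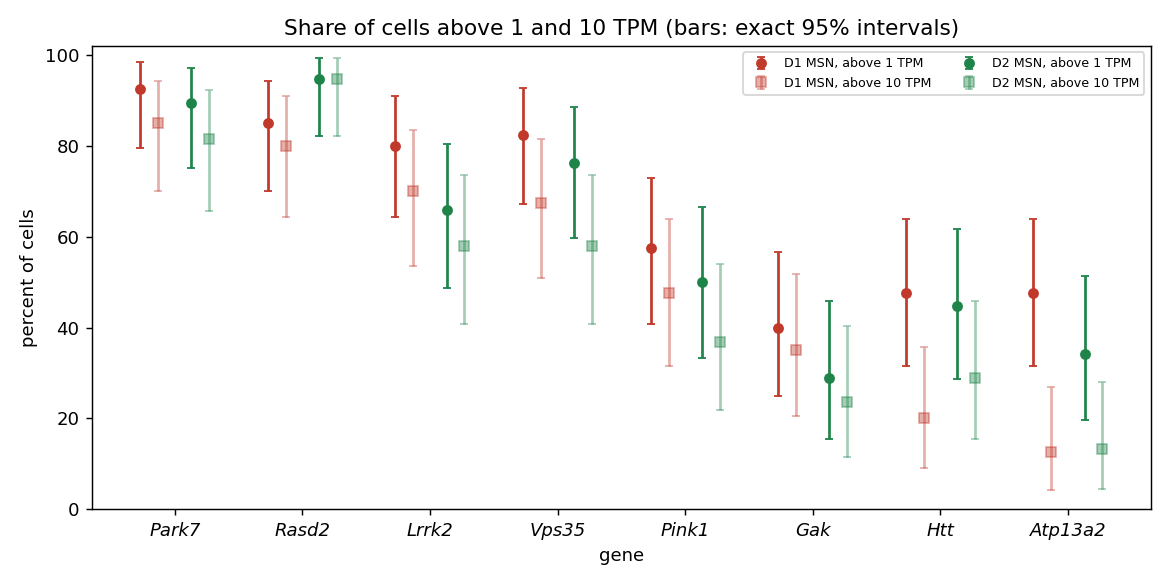
The y axis is the percent of cells above 1 TPM (circles) and above 10 TPM (paler squares) for each gene on the x axis, in D1 MSN (red) and D2 MSN (green). Bars are exact 95% intervals. The D1 and D2 intervals overlap in all 8 genes, and the step from 1 to 10 TPM is small for Rasd2 and wide for Atp13a2.

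The limit of 1 TPM is low and can count traces, and the D2 markers differed at it. Penk was above 1 TPM in all 78 MSN, with means of 120 TPM in D1 and 12438 TPM in D2 MSN. Gpr6, Adora2a and Drd2 passed the limit in 0, 1 and 2 D1 MSN. At 10 TPM the share of MSN fell from 46.2% to 24.4% for Htt and from 41.0% to 12.8% for Atp13a2, but from 89.7% to 87.2% for Rasd2. Among the cells above 1 TPM the median was 6.93 TPM for Atp13a2, 11.9 TPM for Htt and 148 TPM for Rasd2.

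Cell by cell, the number of the 8 genes above 1 TPM ranged from 0 to 8. The median was 5.5 in D1 and 5 in D2 MSN, and 5 of the 78 MSN had all 8. The cell with 0 was the one with 648 genes. By plate the medians were 5 in D1 and 6 in D2 MSN on FACS051_5, and 6 in D1 and 4 in D2 MSN on FACS086_4. The subtype with more genes above 1 TPM on a plate was also the one with more of these 8.

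**Figure D4:**
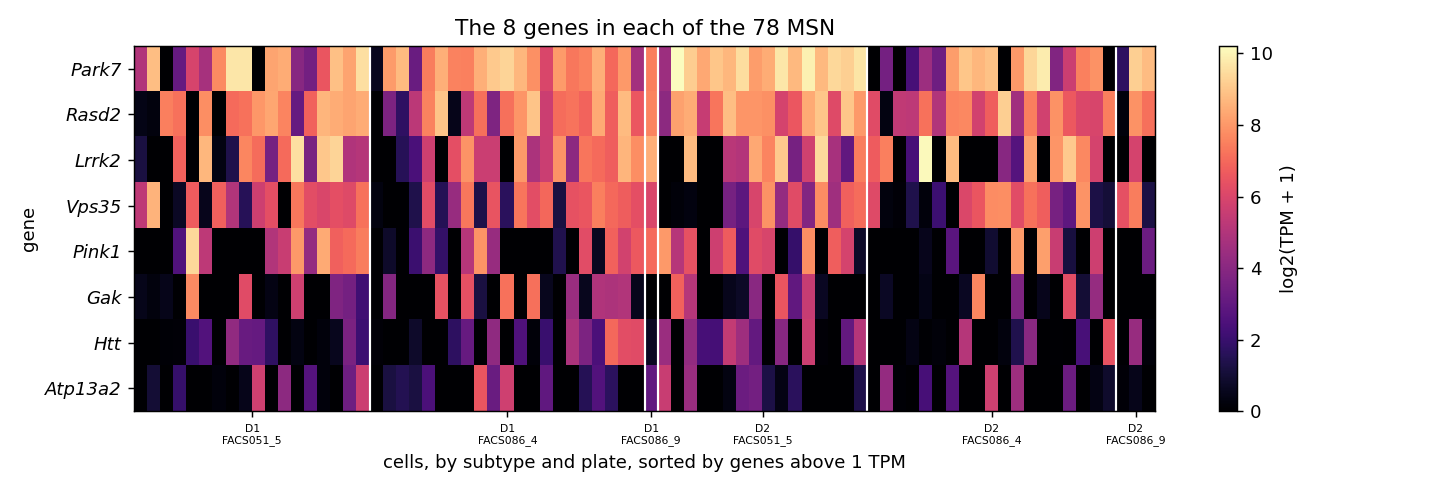
Rows are the 8 genes, columns the 78 MSN ordered by subtype, plate and, within each block, the number of genes above 1 TPM, and the colour is log2 of TPM plus 1. White lines separate the blocks. Park7 and Rasd2 are bright across most columns, Lrrk2, Vps35 and Pink1 alternate between bright and dark, and Gak, Htt and Atp13a2 are dark in most cells.

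Over the 78 MSN, the Spearman correlations of the 28 pairs of these genes ran from -0.11 to 0.35 with a median of 0.14. The highest was between Rasd2 and Lrrk2, the sole pair above 0.3. All cells share differences in depth and plate, and each of the 8 genes but Atp13a2 also rose with the number of genes above 1 TPM, with correlations from 0.24 (Gak) to 0.45 (Rasd2) and 0.04 for Atp13a2. Within plates this was uneven: on FACS051_5 the value was 0.03 for Gak and 0.10 for Htt, against 0.36 and 0.52 on FACS086_4. Weak correlations of this size in sparse values carry no further reading.

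Among the genes above 1 TPM in 50% or more MSN, those most like Rasd2 were Hpca, a neuronal calcium sensor (0.62), Pde1b, a calmodulin-dependent phosphodiesterase (0.62), and the calcium pump gene Atp2b1 (0.60), by Spearman correlation over the 78 MSN. For Vps35 they included Ndufb11 (0.58) and Ppp2r1a (0.52). For Pink1 they were Pdhx (0.53), Cct2 (0.48) and Arf3 (0.45), and for Park7 Usp14 (0.52), Vdac2 (0.52) and Ap1s1 (0.50). For Lrrk2 they were S100pbp (0.52), Sfxn3 (0.50) and Lrrc10b (0.47). The values were lower for Gak (Ythdc1 0.47, Dek 0.45, Atp9a 0.43), Htt (Cend1 0.47, Mpp6 0.45, Kdm3a 0.44) and Atp13a2 (Fyttd1 0.38, R3hdm2 0.35). The genes searched had median correlations from 0.01 (Atp13a2) to 0.19 (Rasd2). These highest values were picked from 3447 or 3448 genes each, and the genes named for Rasd2 themselves correlated with the number of genes found at 0.44, 0.48 and 0.59.

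In the 2 cholinergic interneurons, both on FACS051_5, Rasd2 was below most MSN and Pink1 was above most. Rasd2 stood at 15.8 TPM in well A08, below 66 of the 78 MSN, and at 63.8 TPM in well B02, below 53 of them. Of the 34 MSN of the same plate, 29 and 26 were higher. Pink1 stood at 154 and 198 TPM, with 9 and 8 MSN higher, 6 and 5 of them on the same plate. Neither Rasd2 nor Pink1 left the range of the MSN. Pink1 was not alone in being above most MSN. For Gak 12 and 12 MSN were higher, for Atp13a2 6 and 22, and for Vps35 13 and 24, whereas for Lrrk2 40 and 31 were. Park7 was at 450 and 578 TPM, Vps35 at 140 and 87.8 TPM, Lrrk2 at 34.4 and 89.9 TPM, and Gak at 42.8 and 37.9 TPM. Htt was at 8.45 and 2.51 TPM and Atp13a2 at 26.0 and 3.52 TPM. All 8 genes were above 1 TPM in both cells, which had 10912 and 10251 genes above 1 TPM, more than any MSN.

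The 8 genes were then set among 120 others in 7 lists, of other Parkinson disease genes, partners of huntingtin and Rhes, partners of the LRRK2 kinase, mitochondrial quality control, retromer and sorting nexins, P5-type ATPases with lysosomal genes, and clathrin coat genes. Of these, 119 were matched and 112 averaged at least 1 TPM. A log2 ratio above 1 in size was reached by 13 of the 112 (11.6%), 11 toward D1 and 2 toward D2, against 35.8% of all genes at that mean and 22.0% of genes that averaged at least 10 TPM. Their median ratio was 0.11. Single cells decided many of these calls. With the highest MSN of each gene left out, 4 of the 13 (Hap1, Rab43, Mfn2 and Hdac6) were still past 1 in size, and 7 of the 11 toward D1 were not. Counted over the 112 in that way, 12 passed, 8 toward D1 and 4 toward D2 (10.7%, against 23.02% of all genes).

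**Figure D5:**
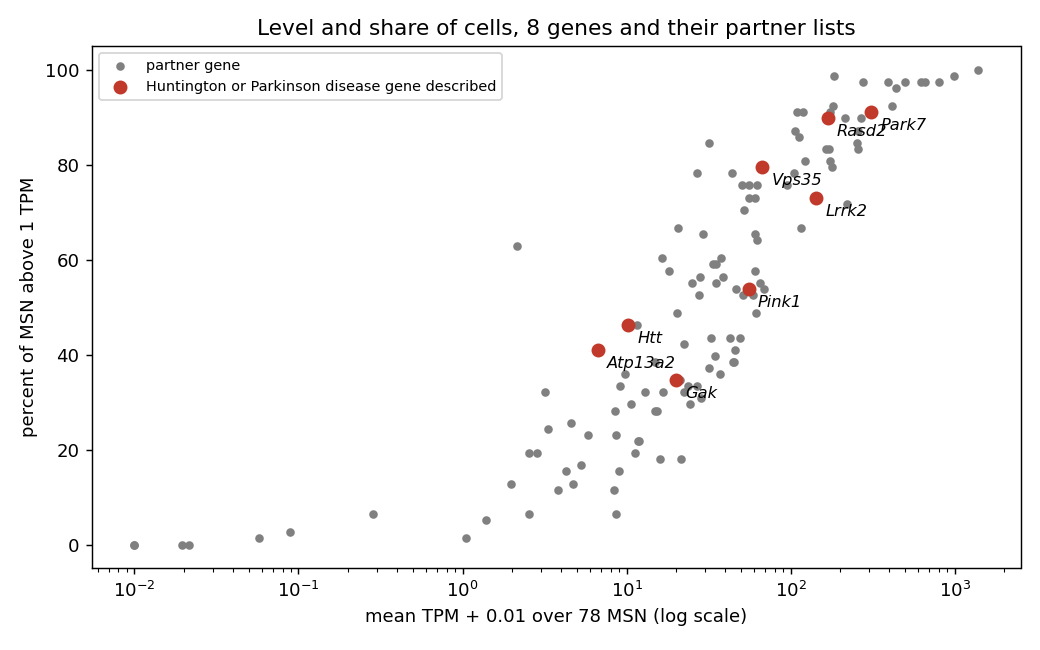
The x axis is the mean TPM plus 0.01 over the 78 MSN on a log scale and the y axis the percent of MSN above 1 TPM. Red points are the 8 genes and grey points the partner genes. The share rises with the mean, Park7 and Rasd2 lie at the upper end near 90%, and Gak lies at 34.6%, lower than Htt and Atp13a2 although its mean is higher.

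Of 22 other Parkinson disease genes, 21 were matched and 8 were above 1 TPM in 50% or more MSN. Among the highest were Chchd2, a mitochondrial protein gene, at 798 TPM, and Uchl1, a deubiquitinase gene, at 625 TPM, both above Park7 and each above 1 TPM in 76 MSN. Past 1 in size were 2 genes, Sncaip at 1.23 and Pla2g6 at 1.60, both toward D1, and they are named because of their values. Pla2g6 rested on a single D1 cell at 80.9 TPM, and Sncaip had a ratio of 0.40 without its highest cell, which held 48.5% of the D1 sum. The list's median ratio was 0.34.

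Among 20 partners of huntingtin and Rhes, 9 were above 1 TPM in 50% or more MSN, and among the highest was Pacsin1, an endocytic adaptor gene, at 105 TPM. Hap1, for the huntingtin-associated protein of vesicle transport, averaged 15.8 TPM in D1 and 5.29 TPM in D2 MSN, a log2 ratio of 1.42, with 1.86 and 0.91 on the plates. It was above 1 TPM in 18 D1 and 5 D2 MSN. Htt and Hap1 were above 1 TPM together in 11 cells, Htt alone in 25 and Hap1 alone in 12. Hip1r at 1.16 and Bdnf at 1.31 also passed 1, and are named because of their values. Bdnf was above 1 TPM in 4 MSN, the highest of which held 92.3% of the D1 sum, and without that cell its ratio turned to -0.19. Hip1r stood at 0.73 without its highest cell, and Hap1 at 1.18. The list's median ratio was 0.24.

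Of 17 partners of the LRRK2 kinase, all matched, 10 were above 1 TPM in 50% or more MSN. The highest were the 14-3-3 gene Ywhaz at 991 TPM, the synaptic vesicle GTPase gene Rab3a at 441 TPM and Ywhah at 413 TPM. Of its Rab substrates, Rab10 averaged 35.1 TPM, Rab12 46.1 TPM and Rab8a 26.99 TPM. Past 1 was Rab43, at 1.65, named because of its value and above 1 TPM in 10 MSN. The list's median ratio was 0.12.

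Of 18 genes of mitochondrial quality control, 9 were above 1 TPM in 50% or more MSN, led by the outer membrane channel gene Vdac1 at 276 TPM, the autophagy receptor gene Sqstm1 at 268 TPM and Bnip3l at 220 TPM. Mfn2, for mitofusin, averaged 29.1 TPM in D1 and 11.2 TPM in D2 MSN, a log2 ratio of 1.30 with 0.70 and 1.25 on the plates. Parl, for the membrane protease that cuts PINK1, went the other way, at 19.0 and 44.8 TPM, a ratio of -1.19 with -1.53 and -1.02, and -0.99 without its highest cell. The paralog Mfn1, named because of its value, had a ratio of 1.37 at a mean of 9.74 TPM, and 0.37 without the D1 cell that held 54.7% of the D1 sum. The list's median ratio was 0.04.

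Of 14 retromer and sorting nexin genes, 5 were above 1 TPM in 50% or more MSN, with Vps29 at 256 TPM, Snx3 at 253 TPM and the late endosomal GTPase gene Rab7 at 163 TPM the highest. Ccdc53, a subunit gene of the WASH complex that works with retromer, averaged 15.2 TPM in D1 and 33.8 TPM in D2 MSN, a log2 ratio of -1.10 with -3.96 and -0.40 on the plates, and -0.83 without its highest cell. Snx5 reached 1.04, with -0.07 and 3.28 on the plates and 0.68 without its highest cell, and is named because of its value. The list's median ratio was -0.22.

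Of 12 P5-type ATPases and lysosomal genes, 4 were above 1 TPM in 50% or more MSN, and the highest were Syt11 at 184 TPM, the protease gene Ctsb at 109 TPM and Lamp1 at 59.4 TPM. Beside Atp13a1, Hdac6, a cytoplasmic deacetylase gene, passed 1, at 16.3 TPM in D1 and 0.40 TPM in D2 MSN. Its log2 ratio was 3.63, with 1.94 and 4.47 on the plates, and it was above 1 TPM in 15 D1 and 3 D2 MSN. Both are named because of their values. The list's median ratio was 0.08.

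All 18 clathrin coat and uncoating genes were matched and 16 were above 1 TPM in 50% or more MSN, the fullest of the lists. Hspa8, Ap2m1 at 496 TPM and Clta at 258 TPM were the highest. A log2 ratio of 1 in size was reached by 0 of them, and the median was 0.09.

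Position and promoter letters had no part in the choice of the genes. Pink1, Atp13a2 and Park7 lie on chromosome 4, Htt and Gak on chromosome 5, Rasd2 and Vps35 on chromosome 8 and Lrrk2 on chromosome 15. RefSeq start windows of GRCm38.p6, from 250 bases before to 50 after the start, were given for 7 of the 8 genes, all but Vps35. These windows held 18 to 34 CpG dinucleotides, beside a median of 7 over 32851 windows, and 58.0% to 74.7% GC, beside a median of 52.7%. At least 18 CpG, a limit set by the lowest of these genes, were found in 29.7% of all windows. The letters TATAAA, searched on both strands, were in 0 of the 7 and in 13.6% of all windows. With so few windows this does not set the genes apart.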

How the data were processed

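cDNA was made from single sorted cells with the SMARTer Ultra Low Input v3 kit and sequenced. The authors deposited TPM per gene and cell. The submitters' notes name STAR 2.5.0, featureCounts 1.5.1 and the build mm10/GRCm38, and how the TPM were made is not given in the sources used here. TPM do not show sequencing depth, and precision could be given for shares of cells alone. All 80 columns matched a labelled cell.

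The genes, lists and limits were chosen with earlier results of these data known. Groups came from the marker gene label, with the 2 cells of Chat over 100 TPM set aside. Each group was 1 sample, so no test was made. A pseudocount of 1 TPM was added to means before log2. Ratios were counted over genes that averaged at least 1 TPM over the MSN. Named in each list were the 3 genes of highest mean and up to 3 with the largest ratio above 1 in size, a mean of at least 10 TPM and 1 direction on both large plates. A few genes that this rule or the likeness measure names are not reported here. Genes said to be named because of their values were chosen after these were seen. Likeness was the Spearman correlation of TPM, with 3 genes given per gene. Gene positions and transcripts were from GENCODE M21 (GRCm38), promoter windows from RefSeq. Alternatives changed the pseudocount, the mean, the scaling, the cells and the detection limit. The arithmetic of the ratio was checked on the real values, with cells split at random and some genes raised by a set factor. The correlation was checked on a gene and its double. No cells were simulated, and the handling of plates, lists and scaling was not covered. Tables were read with pandas 2.3.3 in Python 3.11.15, intervals and correlations came from scipy 1.17.1, ratios from numpy 2.4.6, and figures from matplotlib 3.10.9.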

Additional observations from a re-analysis of the deposited data

Results flagged for a closer look

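The difference of Htt between D1 and D2 MSN ran in opposite directions on the large plates, with a log2 ratio of -1.79 on FACS051_5 and 1.11 on FACS086_4. This drew attention because both values passed 1 in size. The same held for 10.1% of the 15671 genes averaging 1 TPM or more. On FACS086_4 the 3 highest cells held 77.4% of the D1 sum and 95.4% of the D2 sum. The difference between the plates was not tested.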

How the results depend on the processing

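The median log2 ratio over the 8 genes (0.10) moved to 0.36 with the difference of mean log2 values, to 0.28 without plate FACS051_5, to 0.28 without plate FACS086_4, and to -0.61 with upper quartile scaling. The number of genes past 1 in size (0) became 1 without FACS051_5 (Htt, 1.06), 2 without FACS086_4 (Htt, -1.72, and Park7, -1.03) and 3 with upper quartile scaling (Pink1, -1.03, Vps35, -2.70, and Atp13a2, -1.35). That scaling multiplied the cell in well B02 of FACS086_4 by 384 and the cell in well A12 of FACS086_9 by 198, and without the 5 cells multiplied by more than 10 the number was 0. Above 0 TPM, 8 genes in place of 5 were found in at least 50% of the MSN. The share of all genes past 1 in size fell from 35.8% to 22.0% at a mean of at least 10 TPM. Under the 16 alternatives Gak alone kept its sign in all, and the ratios of Htt ran from -1.72 to 1.06. Without the highest MSN of each gene, Bdnf turned from 1.31 to -0.19. Leaving out the cells in wells B02 of FACS086_4 and A12 of FACS086_9, those 5 cells under upper quartile scaling, or the highest MSN of each gene was chosen after seeing the data. No paired analysis was possible because the labels give no replicate numbers that match a D1 cell to a D2 cell. This limit applies to single cells only. D1 and D2 MSN could be compared within plates, since each plate held both subtypes. The means of the large plates with equal weight gave a median ratio of 0.08.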

Other observations

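In the D1 cell in well D04 of FACS051_5, which had high astrocyte genes and Ppp1r1b at 106 TPM, Park7 was at 209 TPM and Vps35 at 111 TPM, while Rasd2, Pink1 and Gak were listed at 0, Lrrk2 was at 0.28 TPM, Htt at 0.044 TPM and Atp13a2 at 0.15 TPM. In the D2 cell in well A12 of FACS086_9, with 1215 genes above 1 TPM, Vps35 was at 82.2 TPM and Park7 at 2.30 TPM, and the other 6 genes were below 1 TPM.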
